A study of Mus musculus with 6 samples.

Results

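The genes described here encode 10 proteins of focal adhesions: talin 1 (Tln1), talin 2 (Tln2), vinculin (Vcl), alpha-actinin 1 (Actn1), filamin A (Flna), tensin 1 (Tns1), paxillin (Pxn), zyxin (Zyx), focal adhesion kinase (Ptk2) and integrin-linked kinase (Ilk). They were chosen by name, not by a threshold on measured values, though with earlier results of these data known, and every array probe whose transcript belongs to one of these genes in RefSeq was taken. This gave 17 of the 56605 probes on the array and 10 of the 22911 genes that the probes could be named for. All 10 genes had a probe, and 7 of them had 2.

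Focal adhesions are the sites where integrins, the receptors for extracellular matrix, are tied to the ends of actin stress fibres. Talin binds the integrin tail, vinculin and alpha-actinin join talin to actin, and paxillin, focal adhesion kinase and integrin-linked kinase assemble signalling complexes on this linkage. In cultured fibroblasts, large focal adhesions and stress fibres that contain alpha smooth muscle actin are hallmarks of the myofibroblast, the contractile matrix-producing cell of scars and fibrotic lung.

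Total RNA of 3 groups from male mouse lung was hybridised to 6 one-colour Agilent arrays, 2 per group, to compare steady-state fibroblasts with myofibroblasts. Myofibroblasts were sorted as CD49e+Sca1-Lin- cells from lungs treated with bleomycin, a drug that injures the lung and leads to fibrosis. Fibroblasts were sorted as CD140a+Lin- cells from lungs without bleomycin, and homogenates were whole lung without bleomycin. The labels used here give no strain or age and do not say whether a group's 2 samples are from different animals. Each p-value below therefore sets a difference against a sample-to-sample spread, part or all of which may be technical. That spread, and each SE, was estimated over all 3 groups together unless stated. The sorting gate and the bleomycin treatment changed together, so their parts in a difference between the sorted groups cannot be told apart. In such bulk RNA, fewer cells of a type and less RNA per cell cannot be told apart either.

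The start regions of 4 genes are shown because these genes cover the range of responses: Actn1 was called higher in myofibroblasts by both of its probes, Tns1 was called lower by one probe, Flna gave a call from one probe of 2, and Vcl gave none. The windows hold the 250 bases before the annotated start, 5′ to 3′ on the gene's strand, from RefSeq on GRCm38.p6. Capitals mark 3 motifs, searched as letters on both strands: the CArG box CCTTATAAGG, the core site of serum response factor as it stands in Vcl, the GC box GGGCGG, and the TEAD-type site GGAATG. The CArG search took CC, 6 letters that are each A or T, and GG. The Vcl window is chr14:20929148-20929397 (plus strand), the Actn1 window chr12:80260364-80260613 (minus strand), the Flna window chrX:74246535-74246784 (minus strand) and the Tns1 window chr1:74124549-74124798 (minus strand).
Vcl: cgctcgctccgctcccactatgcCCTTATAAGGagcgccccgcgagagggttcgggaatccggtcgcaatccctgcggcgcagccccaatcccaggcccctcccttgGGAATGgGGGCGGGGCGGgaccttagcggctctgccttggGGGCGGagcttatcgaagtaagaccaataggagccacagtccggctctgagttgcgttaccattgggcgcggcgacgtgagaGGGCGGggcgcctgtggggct
Actn1: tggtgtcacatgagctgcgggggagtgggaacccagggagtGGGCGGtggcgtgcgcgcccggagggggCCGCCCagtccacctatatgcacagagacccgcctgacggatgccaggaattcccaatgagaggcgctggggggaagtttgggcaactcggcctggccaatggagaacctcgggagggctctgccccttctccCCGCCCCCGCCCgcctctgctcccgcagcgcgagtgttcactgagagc
Flna: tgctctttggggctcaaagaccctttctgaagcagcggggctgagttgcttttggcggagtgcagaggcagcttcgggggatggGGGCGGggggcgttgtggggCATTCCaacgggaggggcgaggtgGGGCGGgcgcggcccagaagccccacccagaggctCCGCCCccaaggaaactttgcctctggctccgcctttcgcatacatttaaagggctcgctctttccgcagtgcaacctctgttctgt
Tns1: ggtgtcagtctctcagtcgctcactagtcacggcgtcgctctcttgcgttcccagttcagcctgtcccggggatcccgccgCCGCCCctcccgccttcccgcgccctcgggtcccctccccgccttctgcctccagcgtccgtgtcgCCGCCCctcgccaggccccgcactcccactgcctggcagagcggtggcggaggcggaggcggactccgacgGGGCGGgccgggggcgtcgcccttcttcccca

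Of the 10 genes, 7 had an entry in the promoter table, with 8 windows in all. The CArG box was found in 1 of these 7 genes, Vcl, 227 to 218 bases before the start, and in 1.47% of all 32851 windows of the same length. The GC box was found in 6 of the 7 genes and in 32.7% of all windows. In Vcl 2 of its 4 GC boxes share a base. The TEAD-type site was found in 2 genes, Vcl and Flna, and in 12.6% of all windows. These letter matches are descriptions of the windows, and no binding was measured.

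Signals are given relative to the 75th percentile of the same array, so that a value of 2 means 2 times that percentile, and levels are compared between arrays for 1 probe at a time. Where a gene has 2 probes, the one with the higher mean signal is called the brightest and represents the gene in counts. The 75th percentile ranged from 224 to 282 intensity units, 65.5 to 73.4% of spots were well above background and 0 were saturated. All arrays lay on 1 slide with 1 scan time, the sorted groups in slide row 1 and the homogenates in row 2, so the row and the homogenate cannot be told apart. The summed relative signal of 6 fibroblast markers was 899 and 929 in myofibroblasts, 501 and 363 in fibroblasts and 41.8 and 36.4 in homogenates. Col1a1 and Col1a2 gave 325 and 507 of this sum on myofibroblast replicate 1. Between the sorted groups these 2 were called higher in myofibroblasts, Pdgfra and Dcn were called lower, and Lum and Pdgfrb were not called. Pdgfra encodes CD140a, on which the fibroblasts were sorted, so its call is not independent of the sort. The summed signal of 5 myofibroblast markers was 340 and 376 in myofibroblasts, 18.6 and 28.9 in fibroblasts and 36.04 and 37.3 in homogenates. That of 7 smooth muscle and pericyte markers was 58.7 and 72.3, 2.27 and 3.52, and 12.2 and 14.9 in the same order. That of 7 epithelial markers was 11.6 and 17.6, 121 and 71.9, and 838 and 827, with most of each sum from Scgb1a1. That of 6 endothelial markers was 0.245 and 0.276, 1.71 and 1.40, and 69.5 and 67.5, with most of the fibroblast sums from Tek (1.37 and 1.07). The last 3 lists also move with the groups compared below, and their part in the results was not tested. That of 7 leukocyte markers was 164 and 155, 175 and 152, and 189 and 197, with most of each sum from 1 Itgam probe. Of these 7 markers, 4 and 5 were well above background in myofibroblasts, 4 and 3 in fibroblasts and all 7 in each homogenate.

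**Figure D1:**
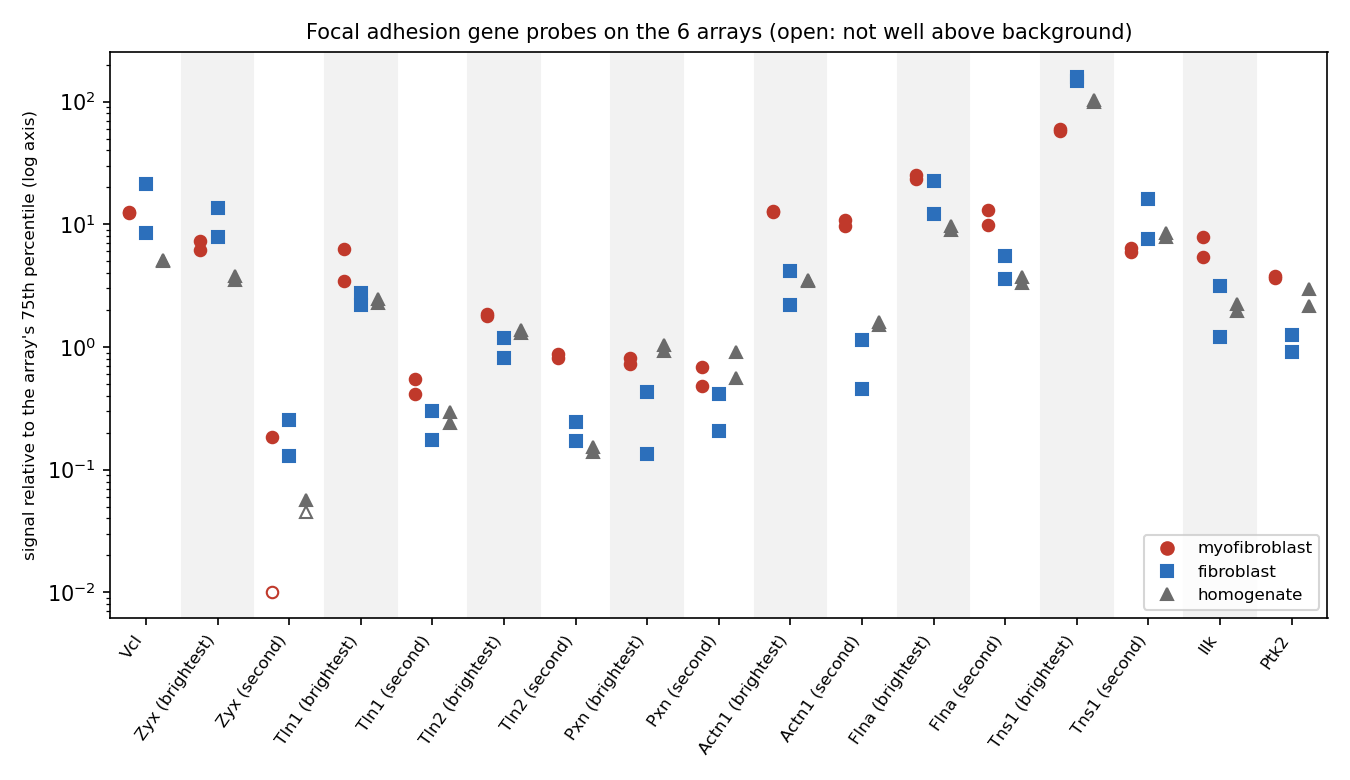
Signal of the 17 probes of the 10 focal adhesion genes on each of the 6 arrays, relative to the array's 75th percentile, on a log axis. Circles are myofibroblasts, squares fibroblasts and triangles homogenates, and open symbols were not well above background. For Actn1 both myofibroblast arrays lie above all 4 others on each probe (12.5 and 12.9 on the brightest), and for Tns1 they lie below all 4 others on each probe.

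Between the sorted groups, alpha-actinin 1 and focal adhesion kinase rose in myofibroblasts and tensin 1 fell, by the brightest probe of each gene, and talin 2 and filamin A rose by their second probes. By the brightest probe, 2 of 10 genes were called higher and 1 lower at an adjusted p under 0.05 (limma, Benjamini-Hochberg over all probes tested), and 7 were not called. Over all genes by 1 probe each, 15.7% were called, 8.4% higher and 7.35% lower. Over the members' 17 probes, 5 were called higher and 1 lower, against 7.3% and 8.79% of all probes tested (16.1% in either direction). The median difference was 0.91 on the log2 scale over the 10 genes by brightest probe and 0.97 over their 17 probes. It was -0.11 over all probes tested. These include second probes and probes without a gene name, here and in the medians against homogenates below, and no median by 1 probe a gene was taken. In 15 of 17 probes the arrays of the sorted groups did not overlap, 12 with myofibroblasts higher and 3 with myofibroblasts lower, against 64.4% of all probes. In all 7 genes with 2 probes, both probes differed in the same direction between the sorted groups. For Zyx, the direction of the dim second probe turned when myofibroblast replicate 1 was left out.

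**Figure D2:**
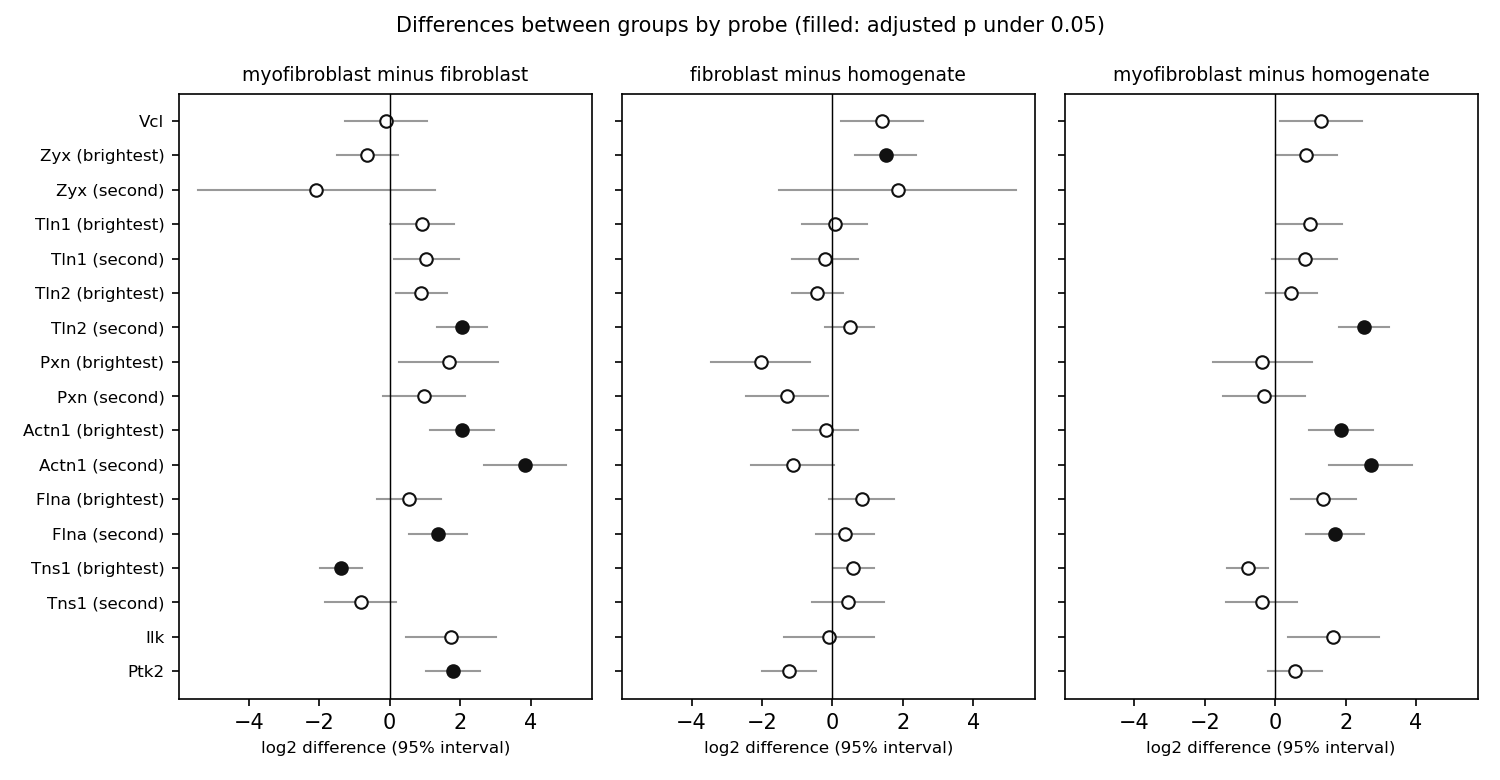
Log2 difference of each probe with its 95% interval from limma for the 3 comparisons, filled where the adjusted p is under 0.05. Between myofibroblasts and fibroblasts 12 of 17 differences lie above 0, and 6 are filled, with the second Actn1 probe farthest to the right at 3.84.

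The talins couple integrin tails to actin and switch integrins to the active state. The brightest Tln1 probe read 3.48 and 6.27 in myofibroblasts, 2.77 and 2.20 in fibroblasts and 2.28 and 2.46 in homogenates. The myofibroblast arrays were the highest, and the fibroblast and homogenate arrays overlapped. The log2 difference between the sorted groups was 0.92 ± 0.36 (SE from the spread shared by all 3 groups, n = 2 per group, limma adjusted p = 0.135) and did not pass the test. The second Tln1 probe gave 1.04 ± 0.37 (limma adjusted p = 0.108).

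Talin 2, the second talin gene, gave different answers by probe. Its second probe read 0.869 and 0.817 in myofibroblasts, 0.172 and 0.244 in fibroblasts and 0.153 and 0.140 in homogenates, so that both myofibroblast arrays stood well above the other 4. On this probe Tln2 rose 4.11-fold against fibroblasts (log2 difference 2.04 ± 0.28, limma adjusted p = 0.0137) and 5.75-fold against homogenates (2.52 ± 0.28, limma adjusted p = 0.00393). The call against homogenates held without any single array, and the call against fibroblasts was lost without either myofibroblast array (adjusted p = 0.0594 and 0.0634) or either homogenate array (0.0543). The brightest Tln2 probe read 1.87 and 1.80 in myofibroblasts, 0.814 and 1.19 in fibroblasts and 1.29 and 1.38 in homogenates. The order of the groups was the same at the top, but the difference between the sorted groups was 0.90 ± 0.29 (limma adjusted p = 0.0881) and did not pass. Whether the 2 probes read different transcripts of Tln2 was not tested.

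Vinculin binds talin and actin and is recruited as tension on an adhesion grows. Vcl read 12.5 and 12.3 in myofibroblasts, 21.2 and 8.47 in fibroblasts and 5.09 and 5.04 in homogenates. The fibroblast arrays lay on either side of the myofibroblast arrays, and both sorted groups lay above the homogenates. The log2 difference between the sorted groups was -0.11 with a 95% interval from -1.28 to 1.06 (limma adjusted p = 0.877), which leaves room for a change of over 2-fold in either direction. Against homogenates the differences were 1.40 ± 0.46 for fibroblasts (limma adjusted p = 0.119) and 1.29 ± 0.46 for myofibroblasts (0.103), and neither passed. Both SEs include the wide fibroblast pair. With only the 4 arrays of myofibroblasts and homogenates, the second difference passed (limma adjusted p = 0.012).

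Alpha-actinin 1 crosslinks actin filaments in stress fibres and binds integrin tails and vinculin. Its brightest probe read 12.5 and 12.9 in myofibroblasts, 4.19 and 2.22 in fibroblasts and 3.45 and 3.51 in homogenates. The second probe read 9.63 and 10.9, 0.453 and 1.13, and 1.51 and 1.61 in the same order. On both probes the myofibroblast arrays lay above the other 4. Actn1 rose 4.15-fold against fibroblasts on the brightest probe (log2 difference 2.05 ± 0.36, limma adjusted p = 0.0243) and 14.3-fold on the second (3.84 ± 0.47, limma adjusted p = 0.0102), so the size of the change depends on the probe. Against homogenates it rose 3.64-fold (limma adjusted p = 0.0221) and 6.57-fold (0.0151). Fibroblasts minus homogenates gave log2 differences of -0.19 and -1.13, and neither passed (limma adjusted p = 0.778 and 0.195). On the second probe these groups did not overlap, with fibroblasts lower. The call between the sorted groups on the brightest probe was lost without either myofibroblast array (adjusted p = 0.0841 and 0.102) or either homogenate array (0.0764), while that on the second probe was lost only without myofibroblast replicate 2 (0.0564). Against homogenates, both probes lost the call without either myofibroblast or either homogenate array (0.0589 to 0.134).

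Filamin A crosslinks actin into networks and binds integrin tails. The brightest Flna probe, which is printed 10 times on each array, read 23.3 and 25.0 in myofibroblasts, 22.7 and 12.1 in fibroblasts and 9.02 and 9.63 in homogenates. The myofibroblast arrays were the highest, but fibroblast replicate 1 came close to them. The repeated spots of this probe varied little within an array, with an SD of 0.03 to 0.05 on the log2 scale, while the 2 fibroblast arrays did not overlap in any spot (21.3 to 23.7 against 11.3 to 12.7). The gap between the fibroblast samples was therefore larger than the spread of repeated spots. The log2 difference between the sorted groups was 0.54 ± 0.36 on this probe (limma adjusted p = 0.32).

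The second Flna probe read 9.94 and 13.1 in myofibroblasts, 3.56 and 5.51 in fibroblasts and 3.69 and 3.30 in homogenates, with the myofibroblast arrays again highest. On this probe Flna rose 2.57-fold against fibroblasts (log2 difference 1.36 ± 0.33, limma adjusted p = 0.0482) and 3.27-fold against homogenates (1.71 ± 0.33, limma adjusted p = 0.021). The call against fibroblasts lay at the threshold. It was lost with a filter on all 4 arrays (limma adjusted p = 0.0587) or only the 4 arrays compared (0.111). Array weights (0.095) and the replicate block (0.0669) ended it too. It was lost without every single array other than fibroblast replicate 2 (adjusted p = 0.0865 to 0.183), and with quantile normalization (0.0905), the authors' deposited table (0.0834) or no filter on dim probes (0.0767). The call against homogenates was lost without either myofibroblast or either homogenate array (0.0534 to 0.146).

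Tensin 1 binds integrin tails and actin and marks the elongated fibrillar adhesions that form behind focal adhesions. Its brightest probe read 57.7 and 60.0 in myofibroblasts, 148 and 158 in fibroblasts and 103 and 99.7 in homogenates. The arrays of a group were close together and the 3 groups did not overlap, with fibroblasts highest and myofibroblasts lowest. Tns1 fell in myofibroblasts against fibroblasts, to a level 2.6-fold lower (log2 difference -1.38 ± 0.23, 95% interval -1.97 to -0.79, limma adjusted p = 0.0224). Both neighbouring steps in this order fell short of the test: fibroblasts against homogenates 0.59 ± 0.23 (limma adjusted p = 0.175) and myofibroblasts against homogenates -0.78 ± 0.23 (0.068). The second probe read 6.46 and 5.99, 7.62 and 15.96, and 7.84 and 8.43 in myofibroblasts, fibroblasts and homogenates. It was also lowest in myofibroblasts, but its difference between the sorted groups of -0.83 ± 0.40 did not pass (limma adjusted p = 0.197). The call on the brightest probe was lost without either myofibroblast array (adjusted p = 0.0807 and 0.0884) or either homogenate array (0.0838).

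Paxillin is an adaptor that focal adhesion kinase phosphorylates. The brightest Pxn probe read 0.720 and 0.814 in myofibroblasts, 0.135 and 0.426 in fibroblasts and 0.933 and 1.04 in homogenates. Fibroblasts were the lowest group without overlap, and the 2 fibroblast arrays differed by 1.66 on the log2 scale, the widest fibroblast gap of the 17 probes. The log2 difference between the sorted groups was 1.67 ± 0.56 (limma adjusted p = 0.0962) and that between fibroblasts and homogenates -2.04 ± 0.56 (0.0739). Neither passed with all arrays. Without fibroblast replicate 2, the higher of that pair, the first was 2.50 (limma adjusted p = 0.00908), and without replicate 1 it was 0.84 (0.0894). In these fits the lone fibroblast array is assumed to vary like the other groups. Myofibroblasts and homogenates differed by -0.37 (limma adjusted p = 0.659), and the second Pxn probe gave no call in any of the 3 comparisons.

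Zyxin is a LIM domain protein that moves to strained or broken stress fibres and takes part in their repair. Its brightest probe read 6.15 and 7.36 in myofibroblasts, 13.7 and 7.92 in fibroblasts and 3.53 and 3.79 in homogenates. Fibroblasts were highest and homogenates lowest without overlap. Zyx was 2.85-fold higher in fibroblasts than in homogenates (log2 difference 1.51 ± 0.34, limma adjusted p = 0.0441), the single call among the 10 genes in that comparison. This call was lost with a filter on all 4 arrays (limma adjusted p = 0.0674) or the mean of the gene's probes (0.182). Only the 4 arrays compared (0.0743) and the replicate block (0.0754) ended it too. Leaving out any array other than fibroblast replicate 2 ended this call (adjusted p = 0.0652 to 0.232), as did no filter on dim probes (0.0665). The sorted groups differed by -0.63 ± 0.34 (limma adjusted p = 0.239). The second Zyx probe was dim, and myofibroblast replicate 1 was not well above background on it, so that its myofibroblast level rests on replicate 2 alone, at 0.184.

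Focal adhesion kinase is the tyrosine kinase that transmits integrin signals. Ptk2 read 3.80 and 3.67 in myofibroblasts, 0.917 and 1.24 in fibroblasts and 2.99 and 2.15 in homogenates. The 3 groups did not overlap, with fibroblasts lowest. Ptk2 rose 3.5-fold in myofibroblasts against fibroblasts (log2 difference 1.81 ± 0.30, 95% interval 1.04 to 2.57, limma adjusted p = 0.022). Fibroblasts minus homogenates gave -1.25 ± 0.30, which did not pass (limma adjusted p = 0.0536). It did pass under some other settings, among them normexp background correction (0.0249), quantile normalization (0.0426) and the authors' deposited table (0.0462). Myofibroblasts minus homogenates gave 0.56 (0.23). The call was lost without either myofibroblast array (adjusted p = 0.0805 and 0.0902), without fibroblast replicate 1 (0.051) or without either homogenate array (0.0633).

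Integrin-linked kinase is a pseudokinase that joins integrin beta chains to actin through the PINCH and parvin adaptors. Ilk read 5.43 and 7.91 in myofibroblasts, 1.21 and 3.15 in fibroblasts and 1.95 and 2.23 in homogenates. The myofibroblast arrays were the highest, and the fibroblast arrays enclosed the homogenate arrays. The log2 difference was 1.75 ± 0.51 against fibroblasts (limma adjusted p = 0.0732) and 1.65 ± 0.51 against homogenates (0.0734), and neither passed with all arrays. The first was 2.43 without fibroblast replicate 2 (limma adjusted p = 0.0155) and 1.06 without replicate 1 (0.109), with the lone fibroblast array again assumed to vary like the other groups.

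The wide spread of the fibroblast pair ran through most of these genes. The log2 gap between the 2 fibroblast arrays had a median of 0.91 over the 17 probes and was over 1 in 5 of them, while the median gap was 0.18 between the myofibroblast arrays and 0.11 between the homogenate arrays. Over all probes well above background on both arrays of a group, the gap was over 1 in 22.9% in fibroblasts, 9.55% in myofibroblasts and 3.73% in homogenates. The SD of the signed difference, a measure unlike the median gap, was 0.90, 0.62 and 0.43 in the same order. Among the 17 probes, the one gap over 1 outside fibroblasts was in myofibroblasts, 4.20 for the dim second Zyx probe. The main fit assumes the same spread in all 3 groups. With only the 4 sorted arrays, the brightest Actn1 probe (limma adjusted p = 0.0666), Ptk2 (0.0545) and the brightest Tns1 probe (0.074) lost their call. With array weights per group, Ptk2 (0.0742) and Tns1 (0.0576) lost it and Actn1 kept it. Against homogenates, calls were gained with only the 4 arrays of myofibroblasts and homogenates. Vcl (limma adjusted p = 0.012), Ilk (0.0188), Zyx (0.0354) and the brightest Flna probe (0.0116) were then called higher in myofibroblasts. The brightest Tns1 probe (0.033) was called lower.

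Against whole lung, sorted fibroblasts gave 1 called probe of 17, or 5.88%, where 14.5% of all probes were called, 5.42% higher and 9.07% lower. By 1 probe a gene, 1 of the 10 genes was called higher, against 6.66% of all genes. The arrays of the pair of groups did not overlap in 11 of the 17 probes, or 64.7%, against 59.8% of all probes. The median over the 10 genes was -0.02, equal to the -0.02 of all probes tested. Myofibroblasts gave 4 called probes of the 16 tested, all higher (Tln2, Flna and both Actn1 probes), or 25%, where 22% of all probes were called, 8.3% higher and 13.7% lower. By the brightest probe 1 of 10 genes was called higher, Actn1, against 10.4% of all genes, and the median was 0.93 against -0.13 over all probes tested. The arrays did not overlap in 15 of these 16 probes, 12 of them with myofibroblasts higher, against 76.1% of all probes. The comparisons share arrays: each uses one group that another uses too, so their differences are not independent.

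**Figure D3:**
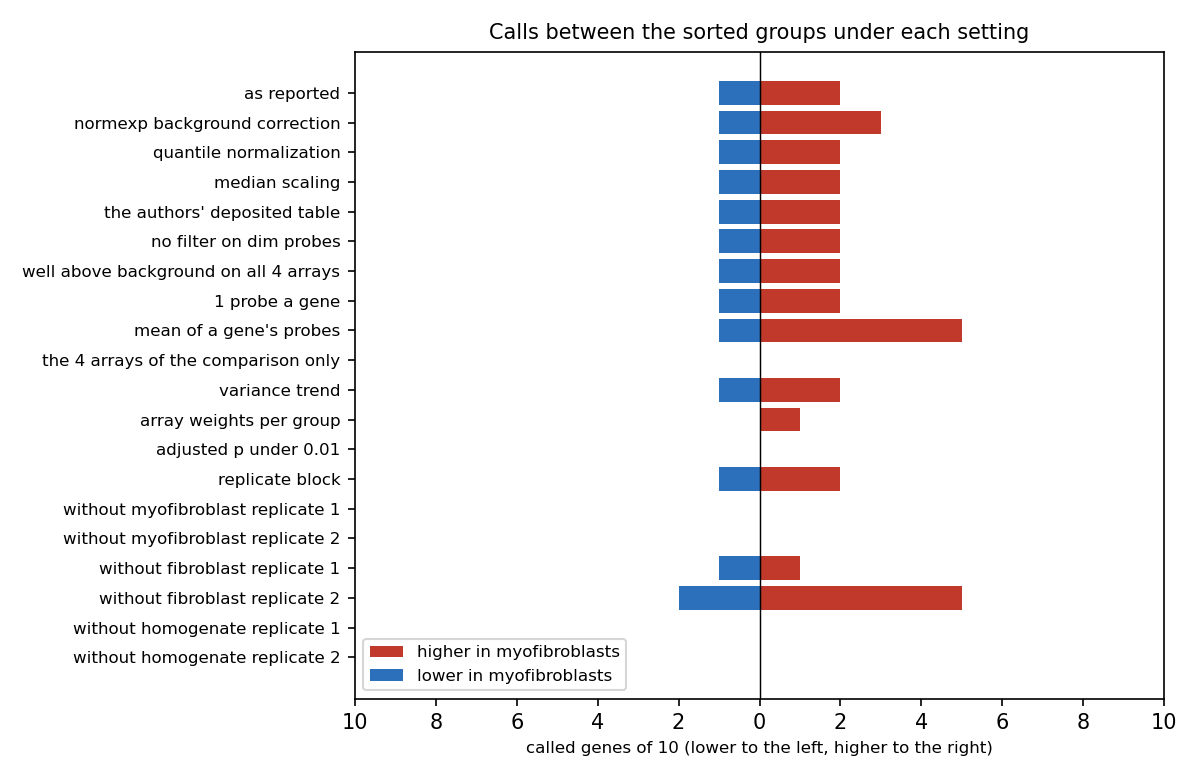
Number of the 10 focal adhesion genes called between myofibroblasts and fibroblasts, by brightest probe, as reported and under each other setting, with calls lower in myofibroblasts to the left of 0 and higher to the right. The reported 2 higher and 1 lower became 0 when any myofibroblast or homogenate array was left out, and 7 in all without fibroblast replicate 2.

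The other genes of the adhesion machinery were read from 5 lists of 57 genes, all with a probe. Between the sorted groups 47 could be tested, of which 11 rose in myofibroblasts, 3 fell and 33 were not called, with a median of 0.23. These are 23.4% higher and 6.38% lower, against the 8.4% and 7.35% over all genes by 1 probe each, which also stand beside the counts of the single lists below. Those shares are for adjusted p. The counts at an unadjusted p in limma have no share over all genes beside them, so they cannot be weighed against one. Of 7 integrin beta chains tested, 2 rose and 0 fell (3 and 0 at an unadjusted p under 0.05 in limma). Itgb5, the partner of the alpha v chain in a vitronectin receptor, read 5.17 and 5.99 in myofibroblasts, 2.43 and 1.99 in fibroblasts and 0.783 and 0.744 in homogenates, a log2 difference between the sorted groups of 1.34 ± 0.26 (limma adjusted p = 0.0292). The leukocyte integrin chain Itgb2 read 0.553 and 1.30, 0.209 and 0.171, and 56.8 and 60.6, so that both sorted groups were far below homogenates, with a difference of 2.17 ± 0.45 between them (limma adjusted p = 0.035). Of 4 leukocyte markers that could be tested between the sorted groups, 0 were called by limma (1 at an unadjusted p under 0.05, higher). In direction, 1 was higher and 3 were lower in myofibroblasts. Each myofibroblast array had a different 1 of the 2 probes of Ptprc (CD45) well above background (0.232 on replicate 1, 0.0674 on replicate 2). The fibroblast arrays had neither, and neither probe could be tested between the sorted groups. The part of leukocyte RNA in the Itgb2 difference was not tested.

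Of the kindlins, PINCH proteins and parvins, which form the complex around integrin-linked kinase, 4 could be tested, 1 rose and 0 fell (2 and 1 at an unadjusted p under 0.05 in limma). Parva (alpha-parvin), which binds integrin-linked kinase, read 1.48 and 1.67 in myofibroblasts, 0.454 and 0.765 in fibroblasts and 0.487 and 0.429 in homogenates, with the myofibroblast arrays highest. Its log2 difference between the sorted groups was 1.42 (limma adjusted p = 0.0464), and a second probe gave 0.31 (0.429). Of 9 tested relatives of zyxin and paxillin and other LIM proteins, 0 were called between the sorted groups by limma (1 at an unadjusted p under 0.05, higher), and the median was 0.08.

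Of 11 adhesion kinases and scaffolds, 3 rose and 0 fell (5 and 1 at an unadjusted p under 0.05 in limma). Ptk2b (Pyk2), the close relative of focal adhesion kinase, read 1.34 and 1.32 in myofibroblasts, 0.222 and 0.0952 in fibroblasts and 5.99 and 6.03 in homogenates. It lay 3.19 ± 0.44 above fibroblasts on the log2 scale (limma adjusted p = 0.0135), and both sorted groups were below whole lung. Bcar1 (p130Cas), a scaffold that focal adhesion kinase and Src phosphorylate, read 5.204 and 7.60, 0.414 and 1.69, and 1.92 and 1.68 in myofibroblasts, fibroblasts and homogenates. Its difference between the sorted groups was 2.91 ± 0.68 (limma adjusted p = 0.0458), while another Bcar1 probe gave 0.56 (0.286).

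Of 16 tested genes for other actin linkers and adaptors, 5 rose and 3 fell. Flnc, the muscle filamin, read 2.69 and 3.47 in myofibroblasts, 0.755 and 0.527 in fibroblasts and 0.142 and 0.221 in homogenates, a difference between the sorted groups of 2.28 ± 0.36 (limma adjusted p = 0.0188). Its myofibroblast arrays lay above the other 4. The smooth muscle and pericyte markers were also higher in myofibroblasts, 5 of the 6 tested passing, and their part in the Flnc difference was not tested.

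The genes that fell most were of the Kank family, adaptors that bind talin and lie at the rim of adhesions. Kank3 read 0.0634 and 0.185 in myofibroblasts, 4.81 and 1.43 in fibroblasts and 1.60 and 1.67 in homogenates, a difference between the sorted groups of -4.60 ± 0.75 (limma adjusted p = 0.02). Kank1 read 6.84 and 4.32, 29.3 and 14.1, and 5.92 and 5.79, a difference of -1.90 (limma adjusted p = 0.0454). Of 4 endothelial markers tested between the sorted groups, 1 fell in myofibroblasts, the angiopoietin receptor Tek (-5.31, limma adjusted p = 0.0398), and the part of endothelial RNA in the Kank differences was not tested. Kank3 was lowest in myofibroblasts and Kank1 highest in fibroblasts, in each case without overlap. All 8 genes named from these lists lost their call between the sorted groups on leaving out some single array (limma adjusted p = 0.0501 to 0.177). For Itgb5, Bcar1 and Flnc this was either myofibroblast or either homogenate array, and for Ptk2b either myofibroblast array. For Parva and Kank1 it was any array but fibroblast replicate 2. For Itgb2 it was any but myofibroblast replicate 1, and for Kank3 any but myofibroblast replicate 2 and fibroblast replicate 2. With only the 4 sorted arrays, Itgb2 (limma adjusted p = 0.082), Itgb5 (0.0859), Parva (0.107), Bcar1 (0.094), Kank3 (0.0502) and Kank1 (0.0999) lost their call. Ptk2b and Flnc kept theirs. Parva was called in 7 of 19 other settings.

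**Figure D4:**
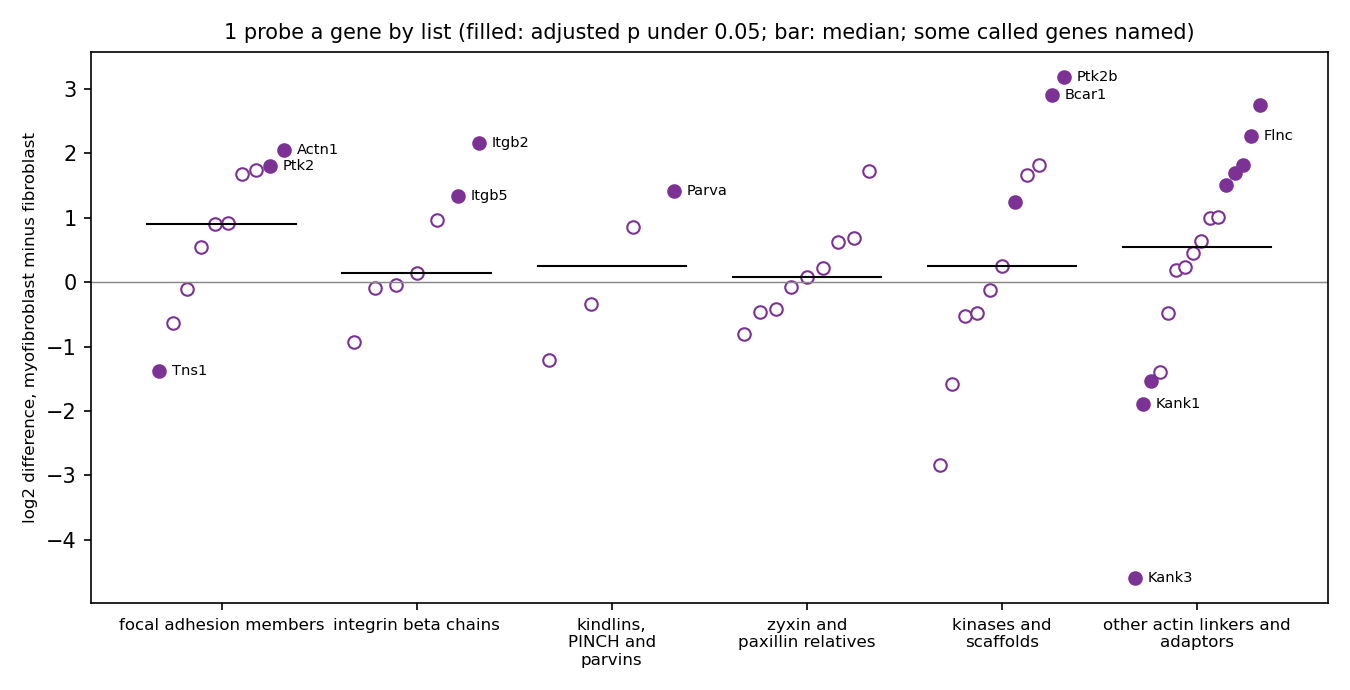
Log2 difference between myofibroblasts and fibroblasts for each gene tested, 1 probe a gene, in the 10 focal adhesion genes and the 5 related lists, with the list medians as bars and called genes filled. The median is 0.91 for the 10 genes and lies between 0.08 and 0.54 in the other lists, and Kank3 is the lowest at -4.60.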

How the data were processed

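Per the file headers and the submitters' processing notes, the arrays were scanned and read with Agilent Feature Extraction 12.0.3.1. The authors deposited intensity values per spot, background-corrected, without normalization between arrays, and a table of scaled intensity values, which is that signal times 1 constant per array for 99.6% of probes to within 1%. From the processed signal, log2 was taken and the array's 75th percentile over 59305 non-control spots subtracted. Outlier spots were left out and spots of a probe averaged, giving 56605 probes, 32994 of them named to 1 RefSeq gene by transcript. Probes were tested where a group compared had both its arrays well above background. limma 3.58.1 (R 4.3.3) fitted 3 groups over all 6 arrays, with 3 residual degrees of freedom and 5.39 after moderation. P-values are two-sided, with Benjamini-Hochberg adjustment over all probes tested and calls at 0.05. The code was tested on simulated data. No 2 arrays held identical values. The array number of each group limits the precision. Alternatives were another background correction (normexp, on the median spot signal that the files hold, where the mean had been planned), other scalings, filters, probe rules and fits, and leaving out each array. Named from the 5 lists were the called genes with the 2 largest positive and 2 largest negative differences, except 1 gene that is not reported here. The 10 genes, the lists and the tests were chosen with earlier results of these data known.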

Additional observations from a re-analysis of the deposited data

How the results depend on the processing

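Called genes among the 10, by brightest probe, were 3 between the sorted groups, 1 between fibroblasts and homogenates and 1 between myofibroblasts and homogenates. Normexp gave 4, 4 and 3, quantile normalization 3, 2 and 2, median scaling 3, 1 and 3, the deposited values of the authors 3, 2 and 2, 1 probe a gene 3, 2 and 2, the mean of a gene's probes 6, 1 and 4, a variance trend 3, 3 and 3, array weights 1, 1 and 7, only the 4 arrays compared 0, 0 and 6, and an adjusted p under 0.01 gave 0 in each. No filter on dim probes, a filter on all 4 arrays and the replicate block each gave 3, 0 and 1. By the mean of a gene's probes, Tln1 (limma adjusted p = 0.0423), Tln2 (0.0191) and Flna (0.0401) were also called higher between the sorted groups. Leaving out 1 array gave 0 to 7, 0 to 5 and 0 to 6. Fewer arrays leave fewer degrees of freedom, but the counts both fell and rose with fewer arrays. The cause of the shifts was not tested. The replicate numbers name samples only: deviations of same-numbered samples correlated at 0.06, 0.02 and -0.01 in the 3 comparisons.

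Over all probes, 5973, 5743 and 8744 were called, 45.4%, 37.4% and 37.8% of them higher. Counts more than 1.5 times away were 9240 (first comparison, the authors' table), 3834 (first, no filter), 3287, 2391 and 4074 (filter on all 4 arrays), 2758, 3392 and 4614 (1 probe a gene), 3368 and 5371 (first and last, mean of probes), 2260 and 14557 (4 arrays), 2255 and 15539 (array weights), and 1061, 2586 and 3443 (adjusted p under 0.01). Leaving out 1 array gave 1685 to 11597, 1931 to 10274 and 2744 to 14162. The replicate block gave 4303, 5103 and 7182. The share called higher was 57.6%, 48.8% and 61.9% with median scaling, 48.9% and 51.8% in the last 2 comparisons with normexp, 20.7% and 15.9% in the first and last with the authors' table, and 53.1% and 50.7% in the last 2 with the filter on all 4 arrays. The median of all probes moved from -0.11, -0.02 and -0.13 to 0.03, 0.25 and 0.27 with median scaling and to -0.52, -0.11 and -0.63 with the authors' table.

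Of the members' probe differences, 12 changed sign under at least 1 setting, 21 times in all, and none was called as reported or where its sign changed. Between the sorted groups they were Vcl, at 0.0262 with median scaling and -0.77 to 0.55 with 1 array left out, and the second Zyx probe, at -4.19 to 0.0136 with 1 array left out. Between fibroblasts and homogenates, median scaling gave 0.0551 for the second Tln1 probe, 0.17 for Ilk and 0.0740 for Actn1. The brightest Tln1 probe was at -0.0726 with quantile normalization, -0.0277 with the authors' table and -0.0759 by the mean of a gene's probes, which gave 0.0237 for Tln2. With 1 array left out the ranges were -0.11 to 0.23 and -0.61 to 0.19 for the brightest and second Tln1 probes, -0.78 to 0.59 for Ilk, -0.65 to 0.27 for Actn1 and -0.0935 to 0.97 for the second Tns1 probe. Between myofibroblasts and homogenates, median scaling gave 0.0391 and 0.0914 for the brightest and second Pxn probes and 0.0183 for the second Tns1 probe, the authors' table gave -0.0365 for Tln2, and the second Pxn probe ran from -0.66 to 0.0384 with 1 array left out. No depth is defined for arrays, and probes near background carry the least precision.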
